A study of Homo sapiens with 6 samples.

Results

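The IFIT genes encode interferon-induced proteins with tetratricopeptide repeats, a small family of antiviral RNA-binding proteins. All 5 listed members, IFIT1, IFIT1B, IFIT2, IFIT3 and IFIT5, were found by Ensembl identifier among the 60605 genes of the count table. They lie side by side on the plus strand of chromosome 10, within 137 kb. RNA sequencing of UMUC3, a human bladder cancer line, gave 3 libraries from cells infected with TIM-1-PLVX-IRES-zsgreen and 3 from cells infected with PLVX-IRES-Zsgreen, here called the empty vector. Both groups therefore carried the vector with the green fluorescent protein ZsGreen, and TIM-1 (gene HAVCR1), a cell-surface receptor for phosphatidylserine, was the only difference named in the labels. The study's title links TIM-1 to IFIT2, so IFIT2 may have been chosen on these samples.

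Interferon binding to its receptor activates transcription factors that enter the nucleus and switch on genes that carry an interferon-stimulated response element in their promoters. IFIT genes are among the most strongly induced of these genes, and virus-activated IRF3 can also switch on some of them directly. IFIT1 binds RNA whose cap lacks a methyl mark of host messenger RNA and blocks its translation. IFIT3 stabilises IFIT1 and strengthens its binding, and IFIT5 binds RNA with a free 5′ triphosphate. IFIT2 binds AU-rich double-stranded RNA, joins complexes with IFIT1 and IFIT3, and has been linked to cell death and reduced growth of tumour cells.

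The promoter windows of IFIT1, IFIT3 and IFIT5 hold matches to the response element motif, and that of IFIT1B holds 0. RefSeq promoter windows on GRCh38.p14, each from 250 bases before to 50 bases after an annotated start, matched 4 of the 5 members by symbol (IFIT1, IFIT1B, IFIT3 and IFIT5). IFIT2 had no window in this set, so its promoter was not searched. The windows shown are those of IFIT1 and IFIT3, which rose in the paired test below, of IFIT5, which did not pass it, and of IFIT1B, which had no reads. Capitals mark every match to the core motif, GAAA, any 2 bases and GAAA again, which on the opposite strand reads TTTC, 2 bases and TTTC. All are on the plus strand and read 5′ to 3′.
IFIT1, chr10:89392373-89392672: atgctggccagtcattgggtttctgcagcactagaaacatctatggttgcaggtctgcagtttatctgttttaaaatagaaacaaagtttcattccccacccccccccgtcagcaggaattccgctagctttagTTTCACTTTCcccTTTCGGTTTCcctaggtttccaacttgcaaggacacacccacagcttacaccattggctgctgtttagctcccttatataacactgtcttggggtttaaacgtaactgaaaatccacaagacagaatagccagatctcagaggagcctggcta
IFIT3, chr10:89327747-89328046: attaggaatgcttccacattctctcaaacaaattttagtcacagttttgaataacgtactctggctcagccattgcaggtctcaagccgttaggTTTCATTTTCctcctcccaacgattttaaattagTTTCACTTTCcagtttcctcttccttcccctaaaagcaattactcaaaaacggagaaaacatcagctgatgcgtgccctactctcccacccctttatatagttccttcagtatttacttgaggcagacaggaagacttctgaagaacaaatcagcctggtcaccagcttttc
IFIT5, chr10:89414318-89414617: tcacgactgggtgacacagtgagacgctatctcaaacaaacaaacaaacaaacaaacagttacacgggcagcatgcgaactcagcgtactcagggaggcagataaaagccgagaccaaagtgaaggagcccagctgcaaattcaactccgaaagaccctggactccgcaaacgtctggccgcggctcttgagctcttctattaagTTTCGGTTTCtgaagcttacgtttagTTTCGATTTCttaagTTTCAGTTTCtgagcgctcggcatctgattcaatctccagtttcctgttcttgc
IFIT1B, chr10:89377806-89378105: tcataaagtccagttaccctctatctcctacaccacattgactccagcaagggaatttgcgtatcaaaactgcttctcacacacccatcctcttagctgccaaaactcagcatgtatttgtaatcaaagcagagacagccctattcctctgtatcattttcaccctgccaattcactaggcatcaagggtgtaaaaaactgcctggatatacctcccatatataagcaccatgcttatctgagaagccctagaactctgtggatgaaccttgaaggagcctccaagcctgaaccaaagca

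IFIT1 held 2 core matches, at -116 to -107 and -103 to -94 bases from the start, and IFIT3 held 2 in the window shown and 2 more at its other annotated start, whose window spans chr10:89332279-89332578. IFIT5 held 3, the last of them from -4 to 5 across the start itself, and IFIT1B held 0. A longer form, in which CT follows the core motif (AG before it on the opposite strand), contains the core motif. It was matched once in IFIT1, once in each IFIT3 window and 3 times in IFIT5. Searched on both strands of 35116 windows of the same length, the core motif was present in 3.57% and the longer form in 0.273%. At least 3 core matches were found in 13 windows. A match is a run of letters and not a measured binding site.

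**Figure D1:**
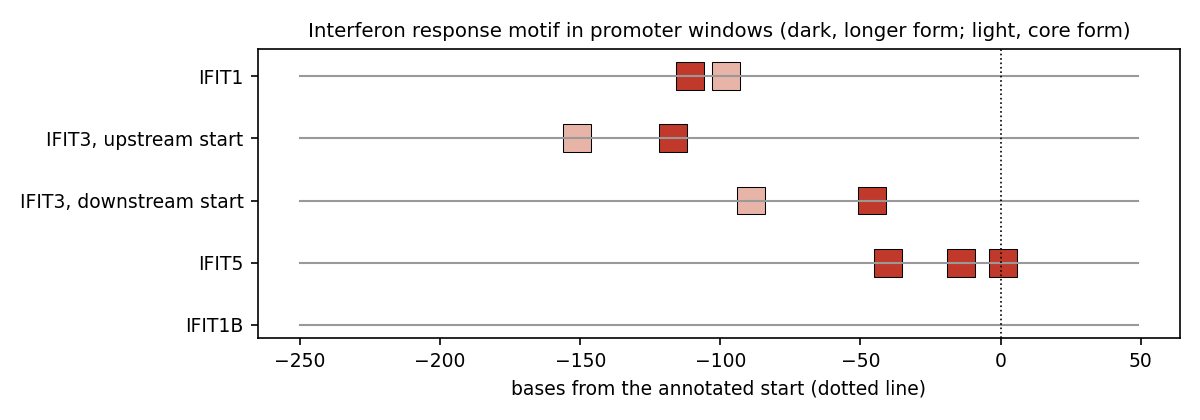
Positions of the interferon response motif in the promoter windows, in bases from the annotated start (dotted line); boxes are matches, dark for the longer form and light for the core form alone. IFIT5 has 3 dark boxes near its start, IFIT1 and both IFIT3 windows have 1 dark and 1 light box each, and IFIT1B has 0. IFIT2 had no window and was not searched.

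Before the results, 1 property of the libraries matters. HAVCR1 had 7069 to 11479 counts in the TIM-1 libraries and 4, 0 and 0 in the empty-vector libraries, as the labels say. Total counts ran from 14312387 to 18605914 per library. Libraries numbered 1 stood apart in both groups: against replicates 2 and 3, 13.2% of the 14479 tested genes were higher and 13.2% lower (edgeR quasi-likelihood test, adjusted p under 0.05). Same-numbered libraries deviated together, clearly so only for replicate 1, so fits with the replicate number as a block are given beside the unpaired ones. After subtracting group means, replicates 2 and 3 correlated at 0.23 and 0.26 within their numbers. Crossed between the groups they correlated at 0.26 and 0.19, so their pairing is uncertain. No label tells if the 3 replicates are separate cultures; p-values thus cover only how far these libraries spread, perhaps for technical reasons. Of 12 urothelial and epithelial markers, 7 had under 10 counts in all 6 libraries together, with EPCAM and UPK3A at 0, while KRT8 and KRT18 were detected at 42.9 CPM or more in every library. KRT18 and GATA3 of this list fell in the paired test (log2 fold changes of -0.24 and -1.25, against 1.79% of all genes lower). Each passed without the replicate 1 pair but not without the replicate 2 pair (edgeR adjusted p = 0.0632 and 0.319) or the replicate 3 pair (0.147 and 0.382), and DESeq2 with the block called KRT18 alone. The list's summed level ran from 323 to 435 CPM with TIM-1 and from 359 to 560 CPM without; their part in the IFIT difference was not tested. Leukocyte markers were at or near 0, with a summed level of at most 0.621 CPM (read counts scaled to library size) in any library and PTPRC and CD3E at 0, and none of the 3 plasmacytoid dendritic markers passed the count filter (summed level at most 0.313 CPM).

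IFIT1, IFIT2 and IFIT3 were higher in every TIM-1 library than in every empty-vector library, while IFIT5 overlapped between the groups and IFIT1B had no reads. IFIT2 differed most, by 2.15-fold in the paired fit, followed by IFIT3 (1.63-fold) and IFIT1 (1.52-fold). With same-numbered libraries taken as pairs, these 3 of the 4 tested members rose, against 3.22% of all tested genes. Without the pairing 0 members passed the edgeR test, against 0.0138% of all genes called higher and 0% lower, and 3 had an unadjusted p under 0.05, against 3.95% of all genes higher and 1.54% lower. DESeq2 called 0 members without the block, against 0.2% of all genes higher and 0.00691% lower, and 0 with it, against 1.04% and 0.525%. Non-overlapping groups were seen with TIM-1 above for 6.6% of the tested genes and with TIM-1 below for 5.06%. A rise in all 3 pairs, seen for these 3 members, was shown by 20.1% of the tested genes, and a fall in all 3 by 19.1%. Bulk RNA does not tell a rise in every cell from a rise in some of the cells.

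**Figure D2:**
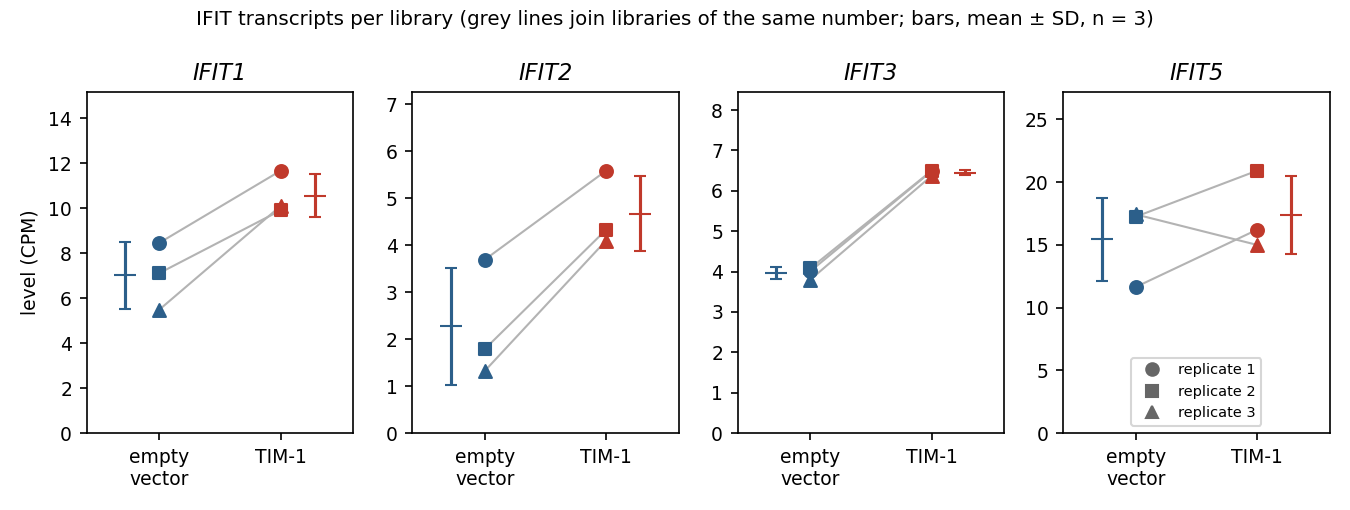
Level of the 4 expressed IFIT genes in CPM (linear axes from 0) in each library, with symbols for replicates 1 to 3, grey lines joining same-numbered libraries and bars for the mean ± SD (n = 3). IFIT3 shows 3 nearly parallel lines, IFIT2 starts from a higher empty-vector value in replicate 1, and the lines of IFIT5 cross.

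IFIT2, ENSG00000119922, lies on chromosome 10 from 89283694 to 89309276 (GRCh38). It stood at 5.59, 4.33 and 4.10 CPM under TIM-1 (replicates 1, 2 and 3), against 3.70, 1.79 and 1.33 CPM under the empty vector. Replicate 1 was the highest library of each group, and the lowest TIM-1 library lay just above the highest empty-vector one. The difference within pairs was 0.58, 1.22 and 1.54 on the log2 CPM scale for replicates 1, 2 and 3, smallest in the pair with the high empty-vector library. Pairing gave a log2 fold change of 1.10 (SE 0.24, edgeR adjusted p = 0.00272), and the unpaired fit gave 1.04 (SE 0.35, edgeR adjusted p = 0.775). Counts were few: the 22 reads of empty-vector replicate 3 have an exact Poisson 95% interval of 13.8 to 33.3, counting error only. Of its exon bases, 356 are shared with AL353751.1 and 65 with LIPA, and how such reads were assigned is not stated in the labels.

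IFIT3, ENSG00000119917, the partner that stabilises IFIT1, lies from 89327894 to 89340971. Its level was 6.49, 6.50 and 6.37 CPM under TIM-1 (replicates 1, 2 and 3), against 4.01, 4.08 and 3.80 CPM under the empty vector. The means were 6.45 ± 0.0710 and 3.96 ± 0.146 CPM (SD, n = 3 each), the narrowest spread of the 4 expressed members in both groups. Counting error was wider than this spread: the 94 counts of TIM-1 replicate 1 alone have an exact Poisson 95% interval of 5.24 to 7.94 CPM. Pair differences were 0.68, 0.66 and 0.73 on the log2 CPM scale. The log2 fold change was 0.70 in both fits, with an edgeR adjusted p of 0.0167 paired (SE 0.19) and 0.575 unpaired (SE 0.18).

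IFIT1, ENSG00000185745, the sensor of caps that lack a host methyl mark, lies from 89392546 to 89406486. It was measured at 11.7, 9.90 and 10.1 CPM under TIM-1 (replicates 1, 2 and 3), against 8.46, 7.11 and 5.49 CPM under the empty vector. The TIM-1 values all lay above the empty-vector values, and replicate 1 was again the highest in each group. Pair differences were 0.46, 0.47 and 0.86 on the log2 CPM scale. Its log2 fold change was estimated at 0.60 with pairing (SE 0.15, edgeR adjusted p = 0.0105) and at 0.59 without (SE 0.19, edgeR adjusted p = 0.715). The pseudogene IFIT1P1 took 1 read in all libraries together.

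IFIT5, ENSG00000152778, which binds triphosphate RNA, lies from 89414586 to 89421001 and was the most abundant member. It reached 16.2, 20.9 and 15.0 CPM under TIM-1 (replicates 1, 2 and 3), against 11.7, 17.3 and 17.4 CPM under the empty vector. The groups overlapped, and the pair difference was positive for replicates 1 and 2 (0.47 and 0.28) and negative for replicate 3 (-0.21, log2 CPM scale). Its log2 fold change was 0.17 in both fits (edgeR adjusted p = 0.502 paired, SE 0.12, and 0.932 unpaired, SE 0.19). Without the replicate 1 pair the paired value was 0.03, and without the replicate 3 pair it was 0.37 (edgeR adjusted p = 0.933 and 0.141).

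IFIT1B, ENSG00000204010, a paralogue of IFIT1 between IFIT3 and IFIT1, from 89378056 to 89385205, had 0 counts in all 6 libraries. A count of 0 allows up to 3 counts (a one-sided 95% limit, counting error only), or 0.162 to 0.207 CPM depending on the library. It was removed by the low-count filter, as was the pseudogene IFIT6P, and has no fold change.

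Per kilobase of exon, IFIT5 was highest, IFIT3 and IFIT1 came next and IFIT2 was lowest of the expressed members. In the empty-vector libraries the levels were 3.85 ± 0.819 CPM per kb for IFIT5, 1.52 ± 0.322 for IFIT1 and 0.554 ± 0.306 for IFIT2 (SD, n = 3), with IFIT3 between 1.44 and 1.55. IFIT1 and IFIT3 did not differ beyond their spread there, while the ranges of IFIT5 and of IFIT2 did not overlap those of the other members. With TIM-1 the levels were 4.33 ± 0.778 for IFIT5, 2.44 ± 0.0269 for IFIT3, 2.29 ± 0.209 for IFIT1 and 1.14 ± 0.195 for IFIT2, in CPM per kb. The ranges of IFIT1 (2.15 to 2.53) and IFIT3 (2.41 to 2.46) again overlapped. Exon lengths are those of all annotated exons merged, so a member that uses short isoforms would be understated.

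**Figure D3:**
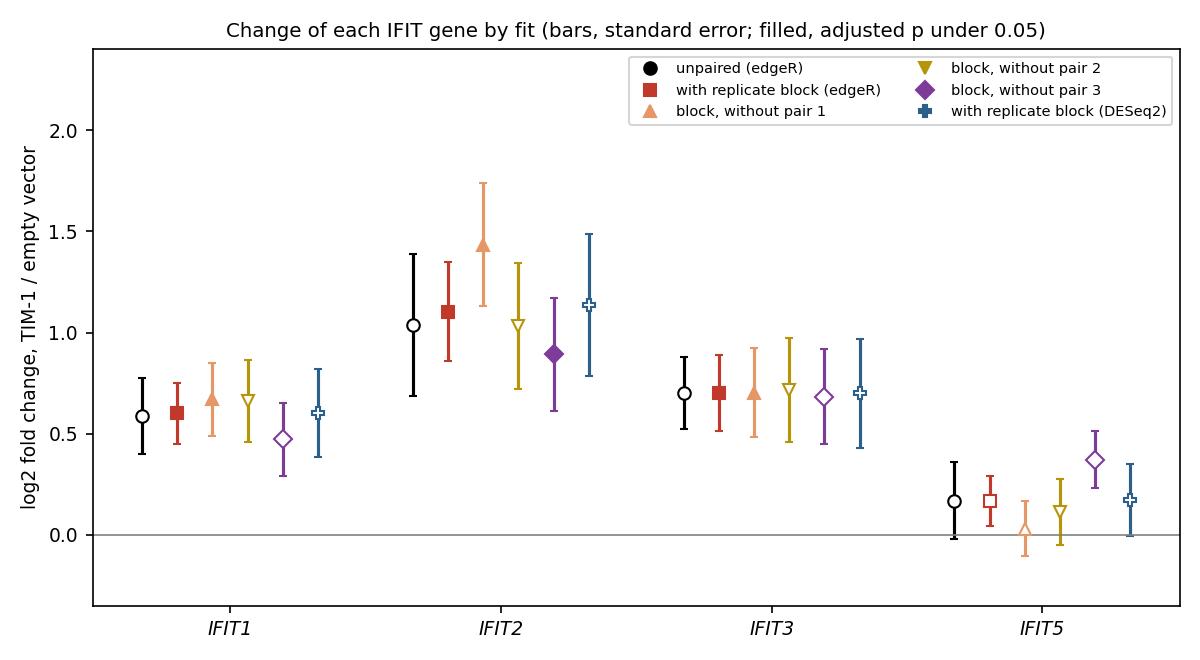
Log2 fold change of each IFIT gene (TIM-1 over empty vector) under 6 fits, with standard errors; filled symbols have an adjusted p under 0.05. IFIT1, IFIT2 and IFIT3 lie above 0 in every fit, from 0.47 to 1.43, but are filled in 2 or 3 of the 6 fits, and IFIT5 is open throughout.

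The calls of the 3 members depended on which pairs were kept. Without the replicate 1 pair all 3 stayed called, with log2 fold changes of 1.43 for IFIT2, 0.70 for IFIT3 and 0.67 for IFIT1 (edgeR adjusted p = 0.00282, 0.0489 and 0.0204). Without the replicate 2 pair none passed (edgeR adjusted p = 0.0572, 0.169 and 0.0641 for IFIT2, IFIT3 and IFIT1). Without the replicate 3 pair IFIT2 alone passed, at 0.89 (edgeR adjusted p = 0.0474), against 0.0815 for IFIT3 and 0.139 for IFIT1. In these fits 3.02%, 1.04% and 2.32% of all tested genes were called higher and 2.73%, 0.389% and 0.918% lower. With a block for replicate 1 alone the same 3 members passed, against 2.4% of all genes higher and 1.12% lower, as they did with the block and a GC correction (4.8% and 4.32%). Without both replicate 1 libraries and with no block IFIT2 alone passed (1.2% and 0.563%). DESeq2 with the block gave an adjusted p of 0.0658 for IFIT2, 0.228 for IFIT3 and 0.172 for IFIT1.

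Replicate 1 differed from the other libraries in IFIT2 and, the other way and at the edge of the threshold, in IFIT5, in a comparison that called 13.2% of all genes higher and 13.2% lower. IFIT2 was higher in replicate 1 by 0.77 on the log2 scale (SE 0.25, edgeR adjusted p = 0.0171), by 1.20 within the empty-vector libraries and by 0.40 within the TIM-1 libraries. IFIT5 was lower, at -0.35 (SE 0.13, edgeR adjusted p = 0.0490), with -0.57 and -0.13 within the empty-vector and TIM-1 libraries, and did not pass with RLE size factors (edgeR adjusted p = 0.0511). IFIT1 stood at 0.32 (edgeR adjusted p = 0.136) and IFIT3 at 0.02 (edgeR adjusted p = 0.961). IFIT3, which had almost no replicate 1 difference, was also the member whose 3 pair differences were closest to each other. The part of what sets replicate 1 apart in the TIM-1 difference was not tested.

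The make-up of the family followed the same lines. IFIT2 supplied 14.0%, 10.4% and 11.5% of all IFIT counts under TIM-1 (replicates 1, 2 and 3), against 13.3%, 5.93% and 4.73% under the empty vector. Empty-vector replicate 1 lay inside the TIM-1 range, and the other empty-vector libraries lay below it. Their Wilson 95% intervals were 4.16 to 8.39% and 3.14 to 7.06%, against 8.32 to 12.9% for the lowest TIM-1 library. Over libraries the share was 12.0 ± 1.83% against 7.98 ± 4.63% (SD, n = 3 each; exact two-sided permutation test, p = 0.3, where 0.1 is the smallest p that 3 against 3 allows). This test does not use the pairing, and the share was higher with TIM-1 in all 3 same-numbered pairs. IFIT1, IFIT2 and IFIT3 together had 1.46, 0.991 and 1.37 counts per IFIT5 count under TIM-1, against 1.39, 0.753 and 0.609 under the empty vector. This ratio was higher with TIM-1 in each same-numbered pair, although the groups overlapped. The summed family level was 39.1 ± 3.13 CPM under TIM-1, against 28.7 ± 1.34 CPM (SD, n = 3 each), without overlap.

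Values for the genes beside the cluster were as follows. LIPA, the lysosomal acid lipase gene on the opposite strand, has an annotated span that contains 4 of the 5 members and had a paired log2 fold change of -0.04 (SE 0.07, edgeR adjusted p = 0.818). On the far sides, FAS stood at 0.01, STAMBPL1 at 0.28, PANK1 at 0.02 and KIF20B at -0.12 (paired, edgeR adjusted p = 0.986, 0.248, 0.958 and 0.507). CH25H, an interferon-responsive cholesterol hydroxylase gene next to LIPA, had 0 counts, and ACTA2 and SLC16A12 had too few to test. In total 0 of 5 tested neighbours passed the paired edgeR test, with 1 higher at an unadjusted p under 0.05 (9.85% of all tested genes) and 0 by DESeq2. Over all genes 3.22% were called higher and 1.79% lower, so a count of 0 among 5 is near the background.

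**Figure D4:**
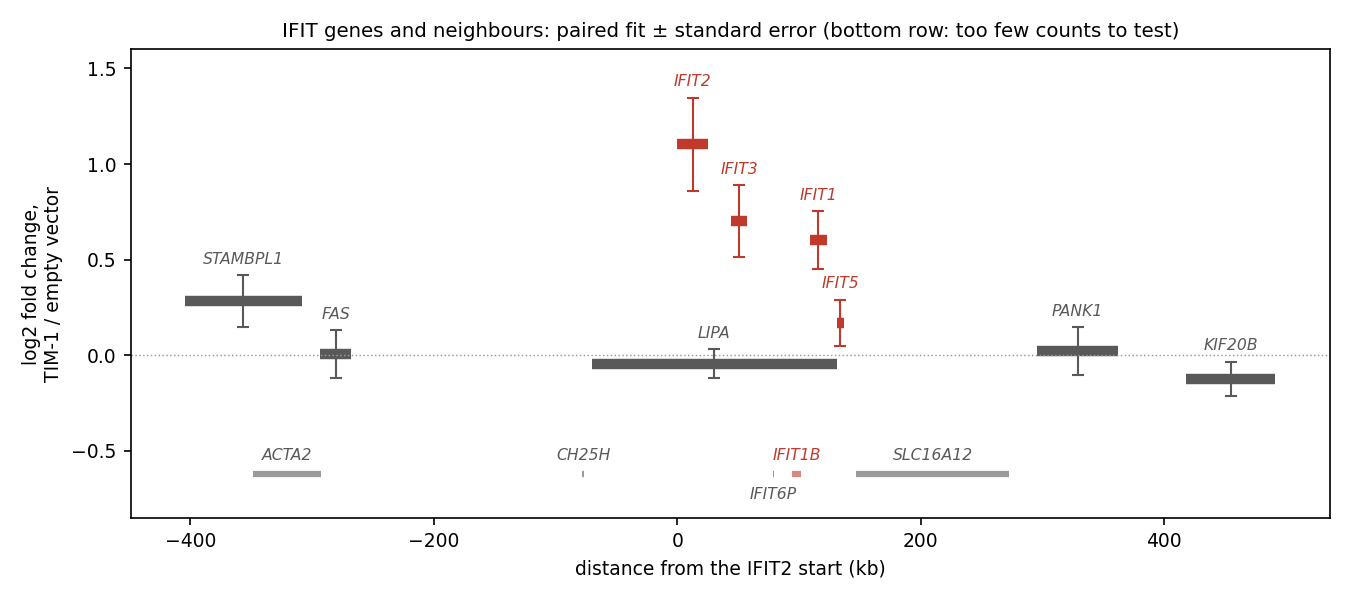
Paired log2 fold change ± standard error of IFIT genes (red) and their neighbours (grey) by distance from the IFIT2 start in kb; bar length is the annotated gene span, and the bottom row holds genes with too few counts to test. IFIT2, IFIT3 and IFIT1 lie at 1.10, 0.70 and 0.60, while LIPA, which spans them, lies at -0.04.

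Other interferon-stimulated effectors moved in part. Of 41 tested effectors outside the family, 6 rose and 0 fell in the paired edgeR test (14.6%, against 3.22% of all tested genes higher). Unpaired, 0 passed (0.0138% of all genes higher) and 6 were higher at an unadjusted p under 0.05 (3.95% of all genes). DESeq2 called 1 higher without the block (0.2% of all genes) and 3 with it (1.04%). Leaving out the pair of replicate 1, 2 or 3 gave 3, 2 and 5 called higher, against 3.02%, 1.04% and 2.32% of all genes. Replicate 1 also differed here, with 4 of the 41 effectors higher and 19 lower than in replicates 2 and 3 (median log2 difference -0.22, 13.2% of all genes each way), and its part in the TIM-1 difference was not tested. The effectors' median paired log2 fold change was 0.13, against 0.00010 over all tested genes. The antiviral protein gene SAMD9 stood at 5.86, 4.02 and 3.18 CPM under TIM-1, against 2.94, 1.24 and 1.15 CPM, a paired log2 fold change of 1.34. LGALS3BP, which encodes a secreted galectin-binding protein, had 12.6, 13.4 and 10.9 CPM against 6.01, 7.36 and 7.24 CPM. DDX60, a helicase gene, and IFITM3, an inhibitor of virus entry, had paired log2 fold changes of 0.68 and 0.37. SAMD9 and LGALS3BP stayed called without each pair in turn, DDX60 passed only without the replicate 3 pair and IFITM3 no longer passed when the replicate 2 pair was left out (edgeR adjusted p = 0.0602). In order of paired log2 fold change over these 41 genes and the 4 IFIT genes, IFIT2 was 4th, IFIT3 8th, IFIT1 11th and IFIT5 22nd of 45.

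Several effectors that respond to interferon in many cells had few or no reads. MX1 had 6 to 12 counts per library, RSAD2 had at most 1, and IFI44L, TRIM22 and EPSTI1 had 0. OAS1, a sensor of double-stranded RNA, was counted 4 and 6 times in TIM-1 replicates 1 and 3 and 0 times in the other libraries. ISG15, the ubiquitin-like modifier, was well measured and had a paired log2 fold change of 0.01 (SE 0.11, edgeR adjusted p = 0.970), and the sensor kinase gene EIF2AK2 stood at 0.05 (SE 0.07, edgeR adjusted p = 0.756). The 8 genes of this paragraph were chosen after their values were seen.

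**Figure D5:**
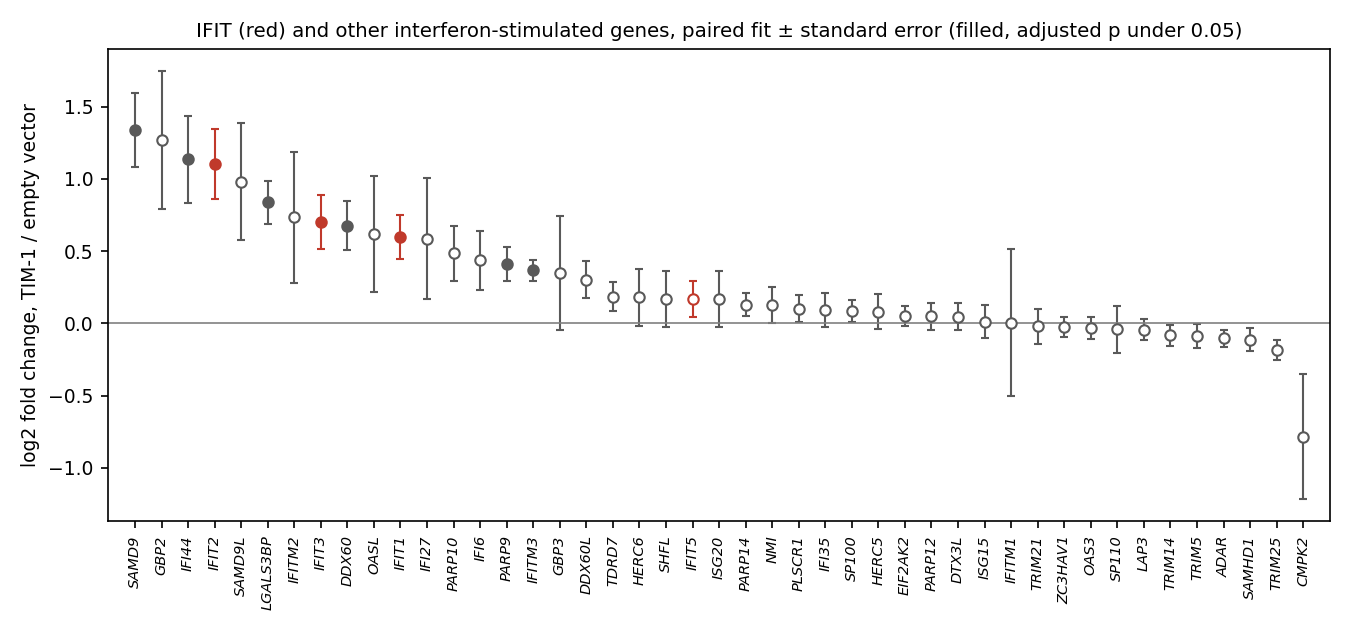
Paired log2 fold change ± standard error of the 4 tested IFIT genes (red) and 41 other interferon-stimulated genes (grey), in descending order; filled symbols have an adjusted p under 0.05. IFIT2 is 4th of 45 and IFIT5 22nd, and the 41 other genes have a median of 0.13.

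No listed interferon ligand gene had enough counts to test, and no tested receptor or transducer gene of the list was called higher. Ligand genes outside the list were not examined. Of 10 interferon ligand genes, 9 had 0 counts in all libraries and IFNL2 had 1 read. Of 9 tested receptor and transducer genes 0 rose in the paired test, against 3.22% of all genes higher, which is near the background. In the same test 1 fell, against 1.79% of all genes lower. That was IFNAR1, a subunit of the type I interferon receptor, at 59.0, 70.3 and 70.5 CPM under TIM-1, against 70.2, 89.4 and 90.2 CPM (paired log2 fold change -0.32, SE 0.07, edgeR adjusted p = 0.00306, and 0.165 without the replicate 2 pair). Its groups overlapped, with empty-vector replicate 1 at the level of TIM-1 replicates 2 and 3. STAT2 and IRF9, which act in transcription downstream of the interferon receptor, had paired log2 fold changes of 0.14 and 0.31 (edgeR adjusted p = 0.507 and 0.733); they were named for this role, outside the rule.

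Further lists around the family gave 0 calls in the paired edgeR test and 0 by DESeq2 with the block. Over all tested genes 9.85% were higher and 8.5% lower at an unadjusted p under 0.05 in the paired fit, and counts this small are near that background. Among 5 tested interferon regulatory factors 0 had an unadjusted p under 0.05, and IRF3 stood at 0.12 and IRF2 at 0.02. Among 7 negative regulators, also with 0 at an unadjusted p under 0.05, PTPN11 and PTPN1 stood at -0.07 and -0.03. Of 10 RNA and DNA sensors and adaptors 1 was higher and 1 lower at an unadjusted p under 0.05, with the adaptor genes MAVS at 0.10 and TRAF3 at -0.05. Of 8 genes that make, methylate or remove the cap of messenger RNA, 0 had an unadjusted p under 0.05, and the cap methyltransferase genes CMTR2 and RNMT stood at -0.09 and -0.01. Of 5 translation factor genes 1 was lower at an unadjusted p under 0.05, with EIF4G1 at -0.16 and EIF3E at -0.01. The fold changes in this paragraph are paired log2 values.

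Tested genes with the motif were set beside the members. Of 38 with the longer form in a promoter window, 7 rose and 0 fell in the paired test (18.4% higher, against 3.35% of the 10431 tested genes with a window). IFIT1 and IFIT3 were among the 7, and B2M, DDX60, IFI44, IFITM3 and PARP9 were the others. Unpaired, none of the 7 passed (edgeR adjusted p from 0.575 to 0.893, against 0.0138% of all tested genes called higher). Of the 7, DDX60, IFI44, IFITM3 and PARP9 were already counted among the effectors that rose, so the 2 counts are not separate. Without the IFIT genes the count was 5 of 35 (14.3%). IFIT5 and IFI6, with 3 matches each, had paired log2 fold changes of 0.17 and 0.44 (edgeR adjusted p = 0.502 and 0.227). With the core motif, 25 of 394 rose (6.35%) and 6 fell (1.52%, against 1.94% of genes with a window). No test of these shares was made, and they were not taken in the DESeq2 fits or with a pair left out.

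The 5 genes whose profile over the 6 libraries was most like that of IFIT2 included 1 listed effector, SAMD9. The effector list holds 41 of the 14479 tested genes, so most genes lie outside it. Likeness was the root mean square difference of log2 CPM after centring each gene, over 13323 genes of at least 1 CPM. The closest were COL4A5 (0.154), a basement membrane collagen gene, KRCC1 (0.180), the receptor phosphatase gene PTPRD (0.181), SAMD9 (0.182) and IGFBP3 (0.189), whose product binds insulin-like growth factors. In this order the 5 were also higher in replicate 1, by 0.60, 0.73, 0.65, 0.95 and 0.61 (log2), as was IFIT2. Their edgeR adjusted p ran from 3.23e-09 to 0.0471, in a comparison that called 13.2% of all genes higher. Likeness thus covers the replicate 1 difference as well as the TIM-1 difference. The difference from IFIT2 was 0.369 for IFIT1, 0.472 for IFIT3 and 0.790 for IFIT5, with a median of 0.726 over all genes compared. Ranked among the genes outside the family, IFIT1 came 154th and IFIT3 532nd. Counting error of the few IFIT2 reads was not part of these differences and ranks, so close values are not told apart. Within the family the closest profiles were those of IFIT1 and IFIT3 (0.176).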

How the data were processed

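The authors deposited raw read counts per Ensembl gene for 6 libraries, 60605 genes, with no normalization. The tools named are HISAT2 2.0.5, featureCounts 1.5.0-p3 and DESeq2 1.16.1, with the build hg38, per the submitters' processing notes. Annotation release, strand setting and the treatment of reads with several matches are not stated there, so counts of overlapping or near-identical genes are uncertain.

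Groups come from the treatment labels. Counts were tested with the edgeR 4.0.16 quasi-likelihood F test (robust, TMM) in R 4.3.3 after filterByExpr with a minimum count of 10, which left 14479 genes. Two-sided p-values were Benjamini-Hochberg adjusted over all of them, with a threshold of 0.05. The F statistic gave the standard errors. TMM-scaled library sizes gave CPM. A table of Ensembl identifiers gave symbols for 60593 genes, and GENCODE 29 on GRCh38 gave positions and exon lengths for 58337.

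Both groups carry replicate numbers 1 to 3. After subtracting group means, libraries sharing a number correlated at 0.53, 0.23 and 0.26, all above the limit of 0.1 for taking numbers as pairs. Replicates 2 and 3 crossed between the groups also exceeded it (0.26 and 0.19), so replicate 1 pairs most clearly. Deviations within a group cancel out, so a replicate 1 shift shared by the groups can by itself make replicates 2 and 3 correlate. Their values therefore cannot show whether they pair. What the numbers mark is not in the labels. The block leaves 2 residual degrees of freedom.

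The other settings were the block forms, DESeq2 1.42.0, other scalings, no filter, leaving out libraries or pairs, and, chosen after the data were seen, a GC correction (14368 genes) and a fit without both replicate 1 libraries. The members and gene lists were chosen with earlier results of these data known. All members were named, as were up to 4 called genes per list by smallest paired p, or the 2 most abundant where none was called. The 8 neighbours and the 5 profiles closest to IFIT2 completed the rule, and any other gene was named after its values were seen. The tests were tested on simulated data. Intervals cover counting error only.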

Additional observations from a re-analysis of the deposited data

How the results depend on the processing

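IFIT1, IFIT2 and IFIT3 kept their direction under all 19 alternatives, with log2 fold changes from 0.44 to 0.74, 0.76 to 1.57 and 0.67 to 0.72. IFIT2 reached the highest value without empty-vector replicate 1 and the lowest without empty-vector replicate 3, and both values were unpaired. IFIT5 ran from -0.0018, without empty-vector replicate 1, to 0.26 with single libraries left out, and to 0.37 without pair 3.

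With no block, 2 genes were higher and 0 lower, and 0 IFIT members and 0 other interferon-stimulated genes were called. A replicate block changed these counts to 466 and 259, 3 and 6, and with a block for replicate 1 alone 348 and 162, 3 and 6. A GC correction with the block, added after seeing the data, gave 689 and 621, 3 and 6, which moves the split between higher and lower. DESeq2 gave 29 and 1, 0 and 1, and with the block 151 and 76, 0 and 3. Without the low-count filter they were 60 and 12, 0 and 2. Leaving out 1 library gave 1 to 8 higher and 0 to 1 lower, with 0 of either list. Leaving out 1 pair with the block gave 440, 152 and 339 higher and 398, 57 and 134 lower for pairs 1, 2 and 3, with 0 to 3 members and 2 to 5 others. Without both replicate 1 libraries and no block they were 175 and 82, 1 (IFIT2) and 2. Some of these fits test other numbers of genes or have other degrees of freedom. The cause of each change was not tested.

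The IFIT2 share of the family was higher with TIM-1 by 3.99 percentage points, with 2.37 to 6.64 when a library was left out. For replicate 1 against the others, 2 members were called (13.2% of all genes each way), and 1 with RLE size factors, where IFIT5 had an edgeR adjusted p of 0.0511. Neighbour genes near 0 changed sign. FAS, at 0.0022 unpaired, was at -0.0014 with a block for replicate 1 alone, -2.0e-05 by DESeq2, -0.00016 with RLE size factors, -0.0047 without the filter, -0.0031 and -0.0063 with the GC correction with and without the block, -0.14 without pair 3 and -0.088 to 0.15 with single libraries left out. LIPA was at 0.016 and 0.015 without replicate 1, with and without the block. With single libraries left out PANK1 ran from -0.022 to 0.081 and KIF20B from -0.52 to 0.28. Without pair 3 they were at -0.017 and 0.057.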
